A study of Homo sapiens with 12 samples.

Results

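Heat shock proteins and DNAJ proteins were read in the transcriptome of MDA-MB231, an established breast cancer cell line. Members are the genes of the count table whose symbol begins with DNAJA, DNAJB, DNAJC, HSPA, HSPB, HSPD, HSPE or HSPH, which gave 76 of 27745 genes. They fall into 14 HSPA genes (the HSP70 family), 1 HSPH gene, 8 HSPB genes (small heat shock proteins), HSPD1 and HSPE1 (the mitochondrial chaperonin pair), 4 DNAJA, 12 DNAJB and 28 DNAJC genes, 2 HSP-binding genes (HSPBP1, HSPBAP1) and 5 antisense or read-through genes. By the known site of the proteins, 33 were placed in the cytosol and nucleus, 14 in the endoplasmic reticulum (ER), 10 in the mitochondrion and 5 on vesicles and endosomes, and 14 were not assigned. The HSP90 genes do not carry these prefixes and are given with the other chaperone lists.

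Cells carried a stable lentiviral short hairpin RNA: a control hairpin (sh_control), one against TDP43 (sh_TDP43) or one against SRSF3 (sh_SRSF3), with 2 RNA-seq libraries each. TDP43, encoded by TARDBP, and SRSF3 are RNA-binding proteins that act in splicing. For RNA immunoprecipitation (RIP), cells of the same line overexpressed Flag-TDP43 or Flag-SRSF3 and were precipitated against the Flag tag, with 1 RIP and 1 input library for each protein. The labels name 1 hairpin per target and do not state if the 2 libraries of a group are separate cultures. P-values therefore reflect only how far these libraries vary, which could be technical variation. A group that received both hairpins was not analysed here.

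HSP70 proteins bind unfolded stretches of client proteins in a cycle driven by ATP. J-domain (DNAJ) proteins deliver clients and start ATP hydrolysis, HSP110 proteins and other exchange factors release ADP to reset the cycle, and small heat shock proteins hold unfolded clients without ATP. Cytosolic chaperone genes are classical targets of heat shock factor 1, and the ER chaperones are induced in the unfolded protein response.

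Counted reads were 34457445 to 38326930 per library. TARDBP was at 168 and 125 CPM (counted reads scaled to library size, after normalisation by the trimmed mean of M-values, TMM) in the control and 34.4 and 31.3 in the sh_TDP43 libraries, and SRSF3 at 459 and 404 and, in sh_SRSF3, 64.0 and 61.7 (log2 change -2.15 and -2.78). The other target was also lower in each knockdown: SRSF3 was at 187 and 180.4 in sh_TDP43, and TARDBP at 108 and 102 in sh_SRSF3 (log2 change -1.23 and -0.48, edgeR quasi-likelihood adjusted p = 3.05e-07 and 0.00326). The TARDBP call in sh_SRSF3 was lost without control replicate 1 (log2 change -0.25, adjusted p = 0.0571). Of 5 markers of the line (VIM, CD44, AXL, EGFR, MSN) all were present, with a summed level of 6257 to 6316 CPM in control, 4318 to 4529 in sh_TDP43 and 4856 to 5117 in sh_SRSF3. Luminal markers summed to 1121 to 1149, 1487 to 1573 and 1460 to 1588 CPM, nearly all of it KRT8, KRT18 and ERBB2, with PGR and FOXA1 at or near 0. The part of these marker shifts in the results below was not tested. Markers of embryonic kidney packaging cells summed to at most 0.111 CPM in any library, those of fibroblasts to at most 26.8, nearly all COL1A1, and those of haematopoietic cells to at most 4.31.

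Per length, HSPA8, the constitutive cytosolic HSP70, had the highest level of the members in control cells, at 444 ± 12.5 RPKM (CPM per kilobase of exon; mean ± SD, n = 2). The ER HSP70 gene HSPA5 (BiP) followed at 259 ± 12.2, then DNAJA1 at 141 ± 3.93 and HSPD1 at 140.2 ± 13.5, which do not differ beyond their spread, then HSPB1 at 108 ± 14.6 and the mitochondrial HSP70 gene HSPA9 at 88.4 ± 8.71. In sh_SRSF3, HSPA8 was at 549 ± 31.5 and HSPA5 at 512 ± 70.5 RPKM, a difference within their spread. Of the 76 members, 64 passed the filter on low counts. The other 12 stayed at or under 0.271 CPM in every library and were not tested; they were DNAJB8, DNAJC12, DNAJC5B, DNAJC5G, HSPB2, HSPB3, HSPB7, HSPB9 and 4 antisense or read-through genes.

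Reads on the members made up 0.795% and 0.800% of counted reads in the 2 control libraries, 0.875% and 0.886% in sh_TDP43 and 1.12% and 1.14% in sh_SRSF3. Cytosolic and nuclear members held 0.467% to 0.468% in control and 0.659% to 0.679% in sh_SRSF3. ER members held 0.159% to 0.168% in control, 0.196% to 0.222% in sh_TDP43 and 0.240% to 0.290% in sh_SRSF3. For the mitochondrial members these shares were 0.119% to 0.133%, 0.126% to 0.131% and 0.158% to 0.168%. In each of these 3 compartments both sh_SRSF3 libraries lay above both control libraries, but 1 gene carried much of the difference in the organelles. Without HSPA9, the other mitochondrial members were lower in sh_SRSF3, at 0.0745% and 0.0670%, than in control, at 0.0888% and 0.0796%. Without HSPA5, ER members held 0.0621% and 0.0627% in control and 0.0731% and 0.0832% in sh_SRSF3. Without HSPA8, cytosolic and nuclear members held 0.259% and 0.245% in control and 0.422% and 0.419% in sh_SRSF3. In bulk RNA, a change in the makeup of the culture and a change of RNA per cell cannot be told apart.

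**Figure D1:**
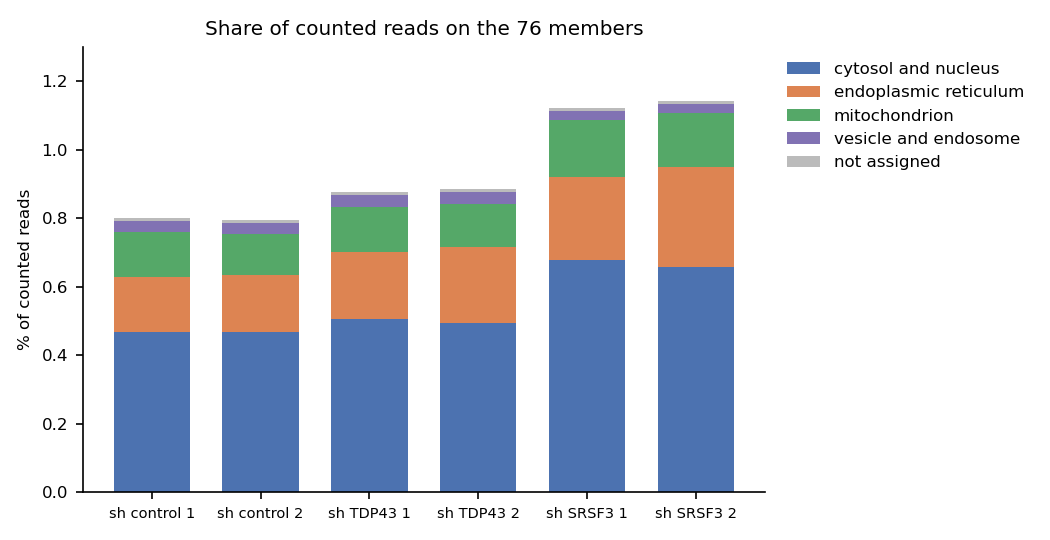
Share of counted reads (percent, y axis) on the 76 members in each of the 6 hairpin libraries (x axis), stacked by compartment. The total stands at 0.795% and 0.800% in the control libraries and at 1.12% and 1.14% in the sh_SRSF3 libraries.

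Promoters were searched for elements that the heat shock and ER stress pathways are known to use. RefSeq promoters (GRCh38.p14, 250 bases before to 50 bases after a start) matched 65 of 76 members. A heat shock element was taken as 3 alternating units without mismatch, GAA NN TTC NN GAA or TTC NN GAA NN TTC, on either strand. It was found in 5 of 65 members (7.69%) against 166 of 27305 genes (0.608%) when every listed start of a gene is used. The ER stress element, CCAAT and CCACG with 9 bases of any kind between them, read on both strands, was found in 1 of 65 members (1.54%), HSPA5, against 25 of 27305 genes (0.0916%). The 6 promoters follow, 5′ to 3′ in the direction of the gene, with the element in capitals. They show where the element lies in the members whose levels are described next; a short stretch is given where it lies past a listed start, and otherwise the 250 bases before the start.
DNAJA1, chr9:33025268-33025296 (+): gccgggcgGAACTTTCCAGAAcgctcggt
DNAJB6, chr7:157336754-157337003 (+): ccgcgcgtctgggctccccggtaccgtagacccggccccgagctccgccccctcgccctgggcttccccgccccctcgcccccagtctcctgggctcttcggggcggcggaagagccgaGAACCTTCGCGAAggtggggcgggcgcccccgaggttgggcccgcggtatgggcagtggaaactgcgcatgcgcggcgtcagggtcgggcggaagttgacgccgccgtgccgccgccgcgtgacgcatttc
HSPA8, chr11:123062137-123062386 (-): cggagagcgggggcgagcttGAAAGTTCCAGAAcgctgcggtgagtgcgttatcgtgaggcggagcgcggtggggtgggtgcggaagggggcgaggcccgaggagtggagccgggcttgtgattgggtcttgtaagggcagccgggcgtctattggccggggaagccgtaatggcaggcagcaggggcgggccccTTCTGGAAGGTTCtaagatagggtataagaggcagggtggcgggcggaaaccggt
HSPA6, chr1:161524290-161524539 (+): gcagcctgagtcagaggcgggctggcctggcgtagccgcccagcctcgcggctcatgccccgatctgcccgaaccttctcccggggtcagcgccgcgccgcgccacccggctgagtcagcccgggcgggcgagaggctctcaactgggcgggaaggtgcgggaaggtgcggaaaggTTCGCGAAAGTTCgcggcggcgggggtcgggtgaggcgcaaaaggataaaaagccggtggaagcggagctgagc
HSPD1, chr2:197500062-197500090 (-): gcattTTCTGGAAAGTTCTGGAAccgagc
HSPA5, chr9:125241344-125241593 (-): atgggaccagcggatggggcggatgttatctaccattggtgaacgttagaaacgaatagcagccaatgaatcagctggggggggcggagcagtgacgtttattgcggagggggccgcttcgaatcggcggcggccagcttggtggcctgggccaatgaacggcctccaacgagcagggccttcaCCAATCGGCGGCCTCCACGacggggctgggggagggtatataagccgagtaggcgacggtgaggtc
HSPA8 held 2 elements, and the capitals of HSPD1 are 2 overlapping matches. HSPD1 and HSPE1 lie head to head: the HSPD1 start used here is 539 bases from the start of HSPE1, and its elements lie between the 2 starts. This HSPD1 start was used because its promoter holds the elements. Another listed HSPD1 start is 105 bases from that of HSPE1. Its promoter holds 0 elements, and those printed lie past it, on the side of the gene. Among the 5 tested members with a heat shock element, 3 rose and 1 fell in sh_SRSF3 (median log2 change 0.31), and none rose and 3 fell in sh_TDP43 (median -0.40). Over all genes tested, 32.5% rose and 34.4% fell in sh_SRSF3, and 20.7% rose and 24.1% fell in sh_TDP43, so nothing is read from these few genes. Among the 52 tested members whose promoters lack it, 27 rose and 13 fell in sh_SRSF3 (median 0.50), and 15 rose and 11 fell in sh_TDP43 (median 0.08). A match describes these letters in this window only.

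The comparison of sh_SRSF3 with sh_control asks which members change when SRSF3 is depleted. Cytosolic and nuclear chaperone genes were mostly higher: HSPA4L, HSPB8, DNAJB4, DNAJB6 and DNAJC8 rose more than 2-fold, as did the ER members DNAJB9, DNAJC3 and DNAJB11 and the mitochondrial HSPA9. DNAJC22, DNAJC9, DNAJC4 and HSPA12A fell furthest. Of 64 members tested, 34 were higher and 15 lower at an adjusted p under 0.05 (edgeR quasi-likelihood test, Benjamini-Hochberg over 15026 genes). Over all genes tested, 66.9% were called, 32.5% higher and 34.4% lower. The median log2 change of the members was 0.49, against -0.03 over all genes, and 13 members rose and 6 fell at least 2-fold. Of all 15026 genes tested, 1700 rose and 3066 fell at least 2-fold with a call. With upper-quartile in place of TMM scaling the median of all genes shifted by -0.154, and the members split into 32 higher and 16 lower. Of all genes, 26.3% were then higher and 40.1% lower.

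By compartment, 18 of 29 tested cytosolic and nuclear members rose and 3 fell in sh_SRSF3, a median log2 change of 0.62. Of 14 ER members 8 rose and 5 fell (median 0.43), and of 10 mitochondrial members 4 rose and 4 fell (median 0.29). Of 3 vesicle members 1 rose, DNAJC13, and DNAJC5 and DNAJC6 fell. By family, 9 of 14 HSPA genes rose and 1 fell (HSPA12A), and 13 of 25 tested DNAJC genes rose and 9 fell. These counts did not differ by more than 1 gene in either direction under upper-quartile scaling.

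The comparison of sh_TDP43 with sh_control asks the same for TDP43. The members showed no common direction. HSPA1L, HSPB8, DNAJB4, HSPA4L and DNAJB14 rose most, and DNAJC9, DNAJB5, HSPA2, DNAJB12 and DNAJC27 fell most. Of 64 members, 15 were higher and 15 lower, shares of 23.4% each, against 20.7% higher and 24.1% lower of all genes (44.8% in either direction). Their median log2 change was -0.01, against -0.00 over all genes, and 2 members rose and 1 fell at least 2-fold. Of all 15026 genes tested, 939 rose and 967 fell at least 2-fold with a call. Upper-quartile scaling gave 20 higher and 10 lower, against 26.3% higher and 19.8% lower of all genes under that scaling. By compartment, 7 of 29 cytosolic and nuclear members rose and 8 fell (9 and 5 with upper-quartile scaling), 4 of 14 ER members rose and 2 fell, and 2 of 10 mitochondrial members rose and 3 fell.

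Both knockdowns were set against the same control libraries, so their calls are not independent. Of the 64 members, 10 were higher in both and 8 lower in both. DNAJA1, DNAJB6, DNAJC27 and HSPA1A were lower in sh_TDP43 and higher in sh_SRSF3, and DNAJB14 and HSPA12A the reverse. A further 20 were higher in sh_SRSF3 without a call in sh_TDP43. The same counts were not taken over all genes, of which 44.8% were called in sh_TDP43 and 66.9% in sh_SRSF3. Nothing particular to the members is read from these overlaps. Compared directly, sh_SRSF3 against sh_TDP43, 34 members were higher and 13 lower (all genes: 32.0% and 33.5%, together 65.5%), with a median of 0.40 against -0.04 over all genes. Under upper-quartile scaling, which shifted the all-gene median by -0.248, the members split into 26 higher and 17 lower. Of all genes, 22.5% were then higher and 42.9% lower. All 6 members with opposite calls passed this direct test. By compartment, 19 of 29 cytosolic and nuclear members were higher and 3 lower than in sh_TDP43 (14 and 5 with upper-quartile scaling), 8 of 14 ER members were higher and 4 lower, and 4 of 10 mitochondrial members were higher and 3 lower.

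**Figure D2:**
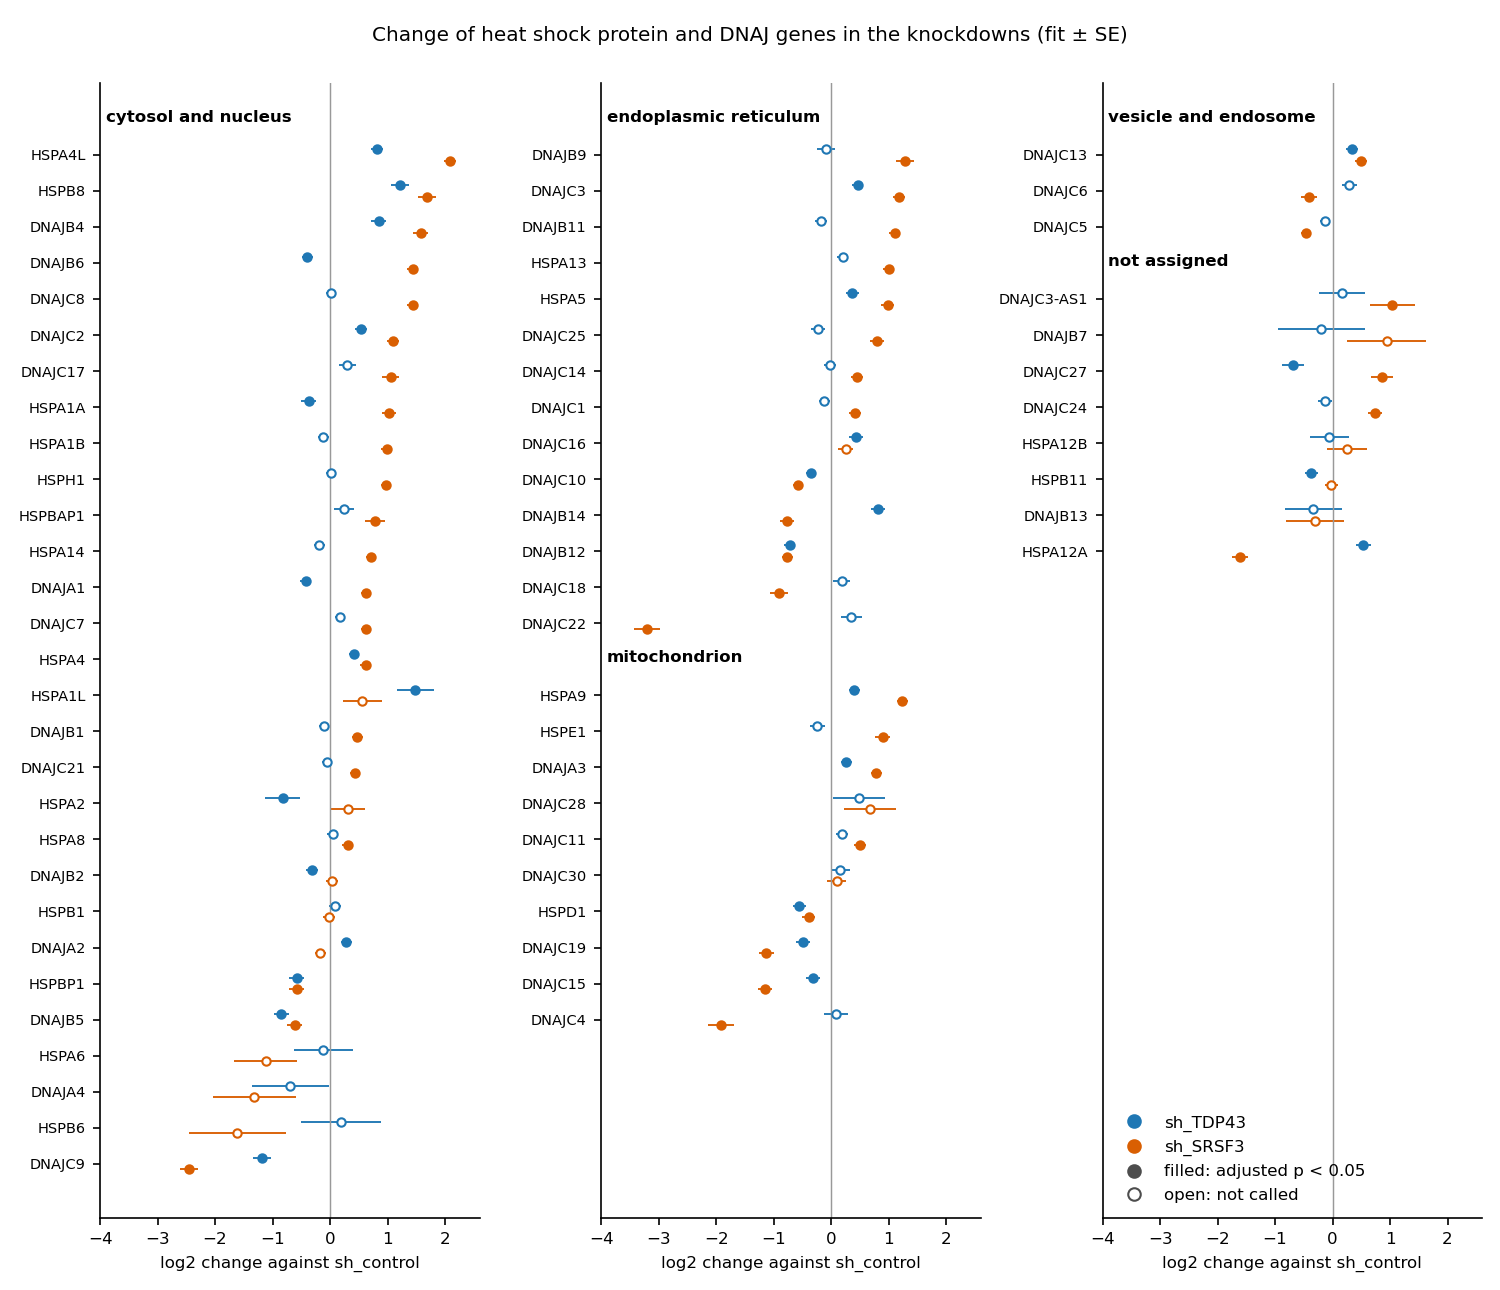
Log2 change against sh_control (x axis, fitted value ± SE derived from the test statistic, 2 libraries per group) of the 64 tested members, by compartment. Values of sh_TDP43 are in blue and those of sh_SRSF3 in orange. Filled points have an adjusted p under 0.05; in the cytosol and nucleus 18 of 29 sh_SRSF3 values are called higher and 3 lower.

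Gene coordinates are those of the count table (GRCh37). Among cytosolic HSP70 genes, the heat-inducible HSPA1A (ENSG00000204389; chromosome 6, 31783241 to 31785723) was at 23.0 and 25.5 CPM in the control libraries, 20.9 and 16.7 in sh_TDP43 and 48.3 and 50.7 in sh_SRSF3. Both sh_SRSF3 values lay above control, and both sh_TDP43 values lay below it. It rose in sh_SRSF3 (log2 change 1.03, SE 0.13, adjusted p = 6.04e-06) and fell in sh_TDP43 (log2 change -0.37, SE 0.13, adjusted p = 0.0306), a call that ended under upper-quartile scaling and without control replicate 2 or sh_TDP43 replicate 2. Its near-identical neighbour HSPA1B was at 69.7 and 62.3 CPM in the control libraries, 63.3 and 58.2 in sh_TDP43 and 128 and 133 in sh_SRSF3; it rose in sh_SRSF3 (log2 change 0.98, adjusted p = 6.61e-07), and its log2 difference in sh_TDP43 was -0.12 (adjusted p = 0.338). Reads that matched both copies were left out of the counts, so the split between the 2 genes is uncertain. HSPA8 (ENSG00000109971; chromosome 11, 122928197 to 122933938) was at 2111 and 2196 CPM in the control libraries, 2315 and 2140 in sh_TDP43 and 2772 and 2556 in sh_SRSF3. Its rise in sh_SRSF3 was small (log2 change 0.31, SE 0.10, adjusted p = 0.0119) and ended under upper-quartile scaling and without sh_SRSF3 replicate 1. The low members HSPA1L and HSPA2 moved apart in sh_TDP43: HSPA1L, known from testis, was at 0.969 and 1.59 CPM in the control libraries, 3.18 and 4.01 in sh_TDP43 and 1.68 and 2.11 in sh_SRSF3. It rose in sh_TDP43 (log2 change 1.48, SE 0.33, adjusted p = 0.00218). HSPA2 was at 4.09 and 2.61 CPM in the control libraries, 2.01 and 1.76 in sh_TDP43 and 4.99 and 3.35 in sh_SRSF3. It fell in sh_TDP43 (log2 change -0.83, SE 0.31, adjusted p = 0.0404), a call lost with DESeq2, with upper-quartile scaling and without control replicate 1 or either sh_TDP43 library. HSPA6, the strictly heat-inducible HSP70 gene, stayed at or under 1.76 CPM in every library and was not called.

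The cytosolic HSP110 genes, which act as exchange factors of HSP70, were all higher in sh_SRSF3. HSPA4L (ENSG00000164070; chromosome 4, 128702976 to 128761888) was at 73.1 and 70.2 CPM in the control libraries, 138 and 114 in sh_TDP43 and 302 and 307 in sh_SRSF3. The 3 groups did not overlap, and sh_SRSF3 stood highest. It rose 4.25-fold in sh_SRSF3 (log2 change 2.09, SE 0.10, adjusted p = 1.57e-09) and 1.76-fold in sh_TDP43 (log2 change 0.81, SE 0.10, adjusted p = 2.35e-05). HSPH1 was at 236 and 226 CPM in the control libraries, 237 and 230.0 in sh_TDP43 and 464 and 441 in sh_SRSF3, a rise in sh_SRSF3 (log2 change 0.97, SE 0.09, adjusted p = 3.65e-07) with sh_TDP43 overlapping control. HSPA4 rose in both, by 0.42 in sh_TDP43 and 0.62 in sh_SRSF3 on the log2 scale. The exchange factor HSPBP1 fell in both, by 0.58 in each on the log2 scale.

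Among J-domain partners of cytosolic HSP70, DNAJB6 and DNAJA1 moved in opposite directions in the knockdowns. DNAJB6 (ENSG00000105993; chromosome 7, 157128075 to 157210133), which keeps aggregation-prone proteins soluble and whose promoter holds the heat shock element printed above, was at 453 and 414 CPM in the control libraries, 339 and 319.6 in sh_TDP43 and 1218 and 1137 in sh_SRSF3. Every sh_SRSF3 value was above, and every sh_TDP43 value below, the control libraries. It rose 2.72-fold in sh_SRSF3 (log2 change 1.44, SE 0.10, adjusted p = 1.62e-08) and fell in sh_TDP43 (log2 change -0.40, SE 0.09, adjusted p = 0.00367). DNAJA1 (ENSG00000086061; chromosome 9, 33025209 to 33039905) was at 393 and 378 CPM in the control libraries, 296 and 278 in sh_TDP43 and 604 and 589 in sh_SRSF3, with the same order of groups (log2 change 0.63 in sh_SRSF3 and -0.43 in sh_TDP43, adjusted p = 2.46e-05 and 0.00157). The heat-inducible DNAJB1 was at 226 and 208 CPM in the control libraries, 205 and 197 in sh_TDP43 and 309 and 294 in sh_SRSF3. It rose in sh_SRSF3 (log2 change 0.48, SE 0.09, adjusted p = 0.000348). DNAJB4 was at 14.8 and 17.8 CPM in the control libraries, 27.6 and 31.1 in sh_TDP43 and 45.6 and 51.5 in sh_SRSF3. It rose in both knockdowns, by 0.85 and 1.58. DNAJB5 fell in both, by 0.85 in sh_TDP43 and 0.61 in sh_SRSF3, and DNAJA2 was called in sh_TDP43 (0.29), a call lost without control replicate 2 or either sh_TDP43 library.

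Small heat shock proteins did not move together. HSPB1 (HSP27) (ENSG00000106211; chromosome 7, 75931861 to 75933612) was at 194 and 160.1 CPM in the control libraries, 183 and 193 in sh_TDP43 and 176 and 174 in sh_SRSF3, overlapping groups with log2 differences of 0.09 in sh_TDP43 and -0.01 in sh_SRSF3 (SE 0.10 each, adjusted p = 0.506 and 0.915). HSPB8 (ENSG00000152137; chromosome 12, 119616447 to 119658936), which works with BAG3 in clearing misfolded proteins, was at 15.1 and 21.9 CPM in the control libraries, 39.1 and 47.1 in sh_TDP43 and 54.6 and 64.4 in sh_SRSF3. All values of both knockdowns lay above control, and it rose in sh_TDP43 (log2 change 1.22, SE 0.16, adjusted p = 3.4e-05) and in sh_SRSF3 (log2 change 1.68, SE 0.16, adjusted p = 5.06e-07). HSPB11, a protein of intraflagellar transport, fell in sh_TDP43 by 0.37, and its log2 difference in sh_SRSF3 was -0.02. HSPB6 was at or under 0.401 CPM and was not called.

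**Figure D3:**
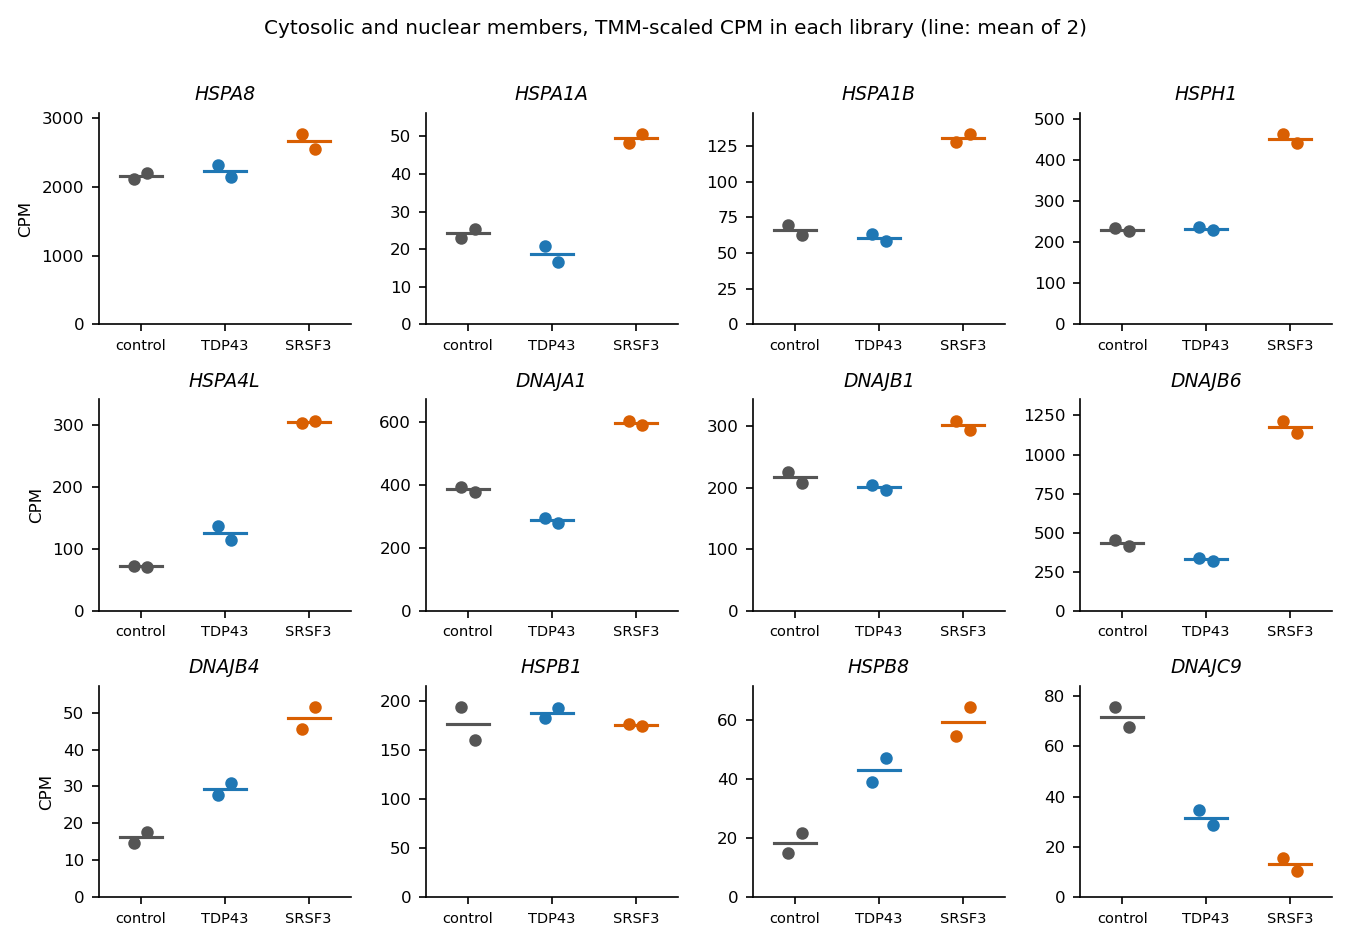
TMM-scaled CPM (y axis, from 0) of 12 cytosolic and nuclear members in each hairpin library (points) with the mean of 2 (line). DNAJB6 runs from 339 and 319.6 in sh_TDP43 to 1218 and 1137 in sh_SRSF3, and DNAJC9 is highest in control.

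Several nuclear DNAJC proteins work with chromatin or the spliceosome rather than in general folding. DNAJC9 (ENSG00000213551; chromosome 10, 74943120 to 75008620), a histone co-chaperone, was at 75.5 and 67.8 CPM in the control libraries, 34.7 and 28.6 in sh_TDP43 and 15.7 and 10.6 in sh_SRSF3. The groups did not overlap, with sh_SRSF3 lowest. It fell 5.47-fold in sh_SRSF3 (log2 change -2.45, SE 0.16, adjusted p = 1.58e-08) and 2.26-fold in sh_TDP43 (log2 change -1.18, SE 0.15, adjusted p = 3.19e-05). The counting used no strand, and 24.0% of its exon bases overlap FAM149B1 on the other strand. DNAJC8, a spliceosome-associated protein, was at 73.1 and 68.2 CPM in the control libraries, 74.1 and 68.6 in sh_TDP43 and 188 and 195 in sh_SRSF3. It rose in sh_SRSF3 (log2 change 1.44, SE 0.09, adjusted p = 1.22e-08). DNAJC17, which is also tied to splicing, rose in sh_SRSF3 by 1.06 (20.4% of its exon bases overlap GCHFR on the other strand). DNAJC2, a ribosome-associated J protein, rose in both, by 0.54 and 1.09, and DNAJC21 and DNAJC7 rose in sh_SRSF3 by 0.43 and 0.62.

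In the ER, HSPA5 (ENSG00000044574; chromosome 9, 127997132 to 128003609), the 1 member with the ER stress element, was at 977 and 1045 CPM in the control libraries, 1212 and 1391 in sh_TDP43 and 1804 and 2194 in sh_SRSF3. The 3 groups did not overlap, and the sh_SRSF3 libraries were highest. HSPA5 rose in sh_SRSF3 (log2 change 0.98, SE 0.11, adjusted p = 3.29e-06) and in sh_TDP43 (log2 change 0.36, SE 0.11, adjusted p = 0.0171), a call that was lost on leaving out control replicate 1 (adjusted p = 0.068). It was also lost on leaving out sh_TDP43 replicate 2 (adjusted p = 0.156). Its lumenal J-domain partners split between the knockdowns. DNAJB9 (ERdj4) was at 18.7 and 21 CPM in the control libraries, 16.7 and 20.5 in sh_TDP43 and 40.8 and 56.0 in sh_SRSF3. DNAJB11 (ERdj3) was at 64.4 and 56.8 CPM in the control libraries, 53.1 and 54.1 in sh_TDP43 and 121 and 139 in sh_SRSF3. In each the sh_SRSF3 libraries lay above all the others. Both rose in sh_SRSF3, by 1.29 and 1.10 on the log2 scale, and neither was called in sh_TDP43 (-0.09 and -0.18). DNAJC3 (p58IPK) was at 75.9 and 69.2 CPM in the control libraries, 98.4 and 101 in sh_TDP43 and 151 and 179 in sh_SRSF3. It rose in sh_TDP43 (log2 change 0.46, SE 0.10, adjusted p = 0.00245) and in sh_SRSF3 (log2 change 1.18, SE 0.10, adjusted p = 2.13e-07). The lumenal HSP70 relative HSPA13 rose in sh_SRSF3 by 1.00.

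Other ER members fell. DNAJC10 (ERdj5), a disulfide reductase, was at 120.4 and 130.3 CPM in the control libraries, 100.4 and 95.4 in sh_TDP43 and 84.0 and 83.5 in sh_SRSF3. It fell in both, by 0.36 and 0.58, the call in sh_TDP43 being lost without sh_TDP43 replicate 2 (adjusted p = 0.065). The paired membrane proteins DNAJB12 and DNAJB14, which act with HSPA8 in ER-associated degradation, parted. DNAJB12 was at 67.3 and 63.9 CPM in the control libraries, 39.7 and 39.8 in sh_TDP43 and 38.3 and 38.7 in sh_SRSF3. It fell in both (log2 change -0.72 and -0.77, adjusted p = 3.87e-05 and 7.32e-06). DNAJB14 (ENSG00000164031; chromosome 4, 100817405 to 100867883) was at 51.5 and 65.1 CPM in the control libraries, 101 and 104 in sh_TDP43 and 31.6 and 37.0 in sh_SRSF3, the groups again apart. It rose in sh_TDP43 (log2 change 0.81, SE 0.12, adjusted p = 8.19e-05) and fell in sh_SRSF3 (log2 change -0.76, SE 0.12, adjusted p = 6.39e-05). DNAJC22, a membrane J protein, was at 7.88 and 7.04 CPM in the control libraries, 9.31 and 9.65 in sh_TDP43 and 0.841 and 0.776 in sh_SRSF3. It fell 9.21-fold in sh_SRSF3 (log2 change -3.20, SE 0.23, adjusted p = 3.45e-08), the largest fall of a tested member in that comparison. DNAJC18 fell in sh_SRSF3 by 0.91 and had no call in sh_TDP43 (0.18).

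Mitochondrial members moved in both directions. HSPA9 (mortalin) (ENSG00000113013; chromosome 5, 137890571 to 137911133), the matrix HSP70 that pulls proteins through the import channel, was at 449 and 391 CPM in the control libraries, 563 and 548 in sh_TDP43 and 1005 and 971 in sh_SRSF3. The groups did not overlap, and it rose in sh_TDP43 (log2 change 0.40, SE 0.10, adjusted p = 0.00377) and 2.35-fold in sh_SRSF3 (log2 change 1.23, SE 0.10, adjusted p = 8.23e-08). Its matrix J partner DNAJA3 rose in sh_SRSF3 by 0.79; the call in sh_TDP43 (0.26) was lost without control replicate 2, without any 1 of the sh_TDP43 or sh_SRSF3 libraries, and with the 2 groups fitted alone. The J proteins of the import motor, DNAJC19 and DNAJC15, went the other way. DNAJC19 was at 35.0 and 31.6 CPM in the control libraries, 22.4 and 25.0 in sh_TDP43 and 16.5 and 13.9 in sh_SRSF3. It fell in sh_TDP43 (log2 change -0.49, SE 0.13, adjusted p = 0.00647) and in sh_SRSF3 (log2 change -1.13, SE 0.13, adjusted p = 3.54e-06), the first call being lost without sh_TDP43 replicate 1. DNAJC15 was at 41.8 and 47.5 CPM in the control libraries, 38.8 and 32.9 in sh_TDP43 and 20.7 and 19.6 in sh_SRSF3. It fell in sh_SRSF3 by 1.15; its fall in sh_TDP43 (-0.32) passed narrowly and was lost under RLE or upper-quartile scaling, with DESeq2 and without control replicate 2, sh_SRSF3 replicate 2 or sh_TDP43 replicate 2. DNAJC4 fell in sh_SRSF3 by 1.92, and 10.6% of its exon bases overlap NUDT22.

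The chaperonin HSPD1 (HSP60) and its lid HSPE1 (HSP10) fold matrix proteins as 1 complex. HSPD1 (ENSG00000144381; chromosome 2, 198351305 to 198381461) was at 636 and 554 CPM in the control libraries, 434 and 375 in sh_TDP43 and 492 and 415 in sh_SRSF3. Both knockdowns lay below control. It fell in sh_TDP43 (log2 change -0.56, SE 0.11, adjusted p = 0.00121) and in sh_SRSF3 (log2 change -0.39, SE 0.11, adjusted p = 0.00728), the second call being lost without sh_SRSF3 replicate 2 (adjusted p = 0.107). HSPE1 (ENSG00000115541; chromosome 2, 198364718 to 198368181) was at 50.8 and 38.7 CPM in the control libraries, 41.3 and 34.4 in sh_TDP43 and 87.1 and 79.7 in sh_SRSF3, so that sh_SRSF3 stood above control and sh_TDP43 overlapped it. It rose in sh_SRSF3 (log2 change 0.90, SE 0.13, adjusted p = 3.1e-05). Its log2 difference in sh_TDP43 was -0.24 (adjusted p = 0.154), called lower with a replicate block (adjusted p = 0.0404) or without control replicate 2 (adjusted p = 0.0139). The 2 genes share 281 exon bases on opposite strands, 14.2% of those of HSPE1, and unstranded reads there cannot be assigned.

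**Figure D4:**
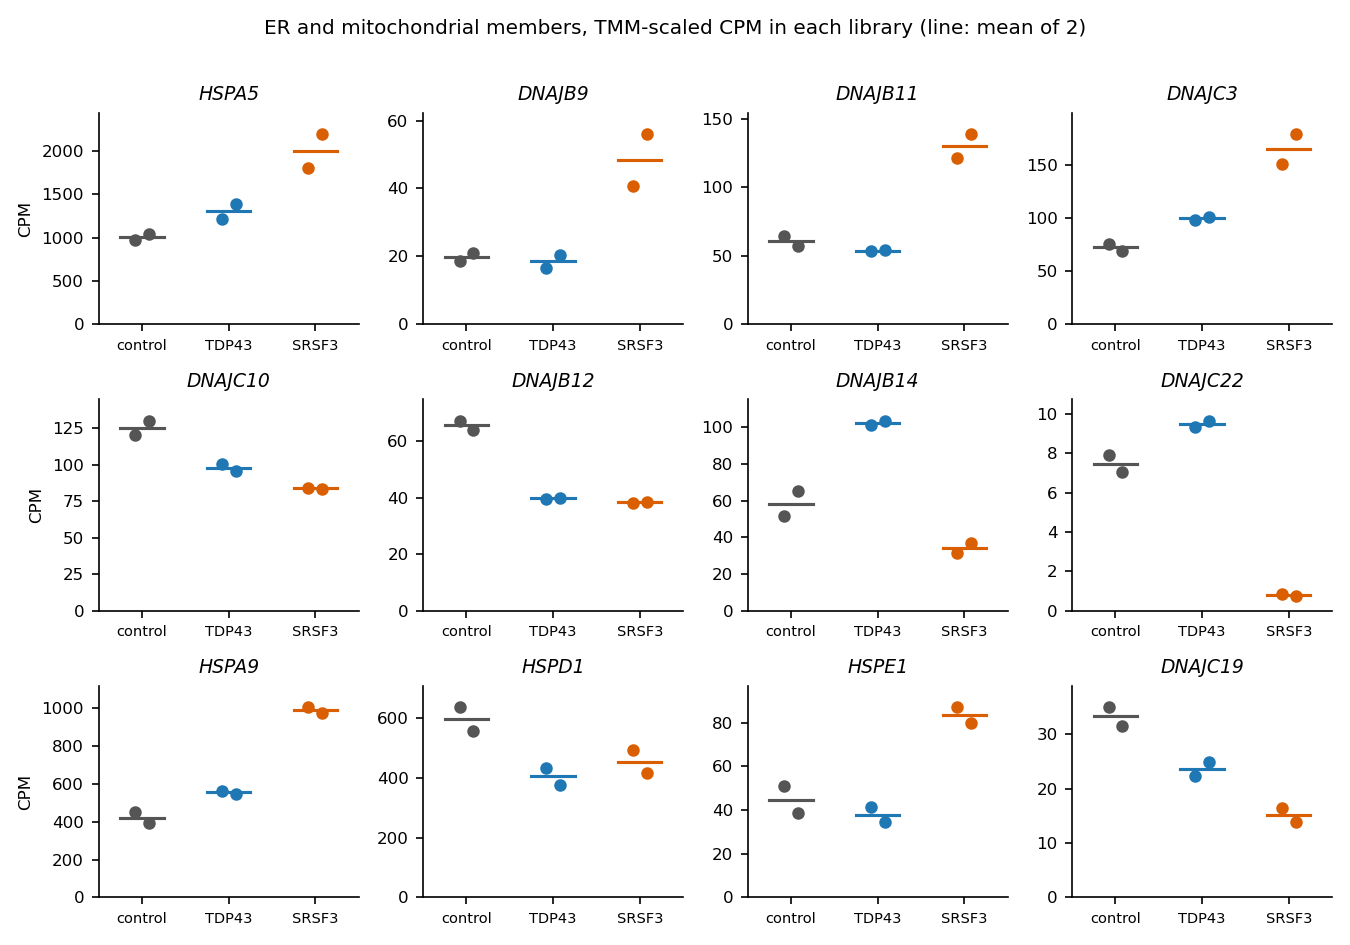
TMM-scaled CPM (y axis, from 0) of 8 ER and 4 mitochondrial members in each hairpin library (points) with the mean of 2 (line). HSPA5, DNAJC3 and HSPA9 step up from control through sh_TDP43 to sh_SRSF3, while HSPD1 is highest in control and HSPE1 in sh_SRSF3.

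On vesicles and endosomes, DNAJC6 (auxilin) and DNAJC13 serve clathrin coats and endosomal sorting, and DNAJC5 is the cysteine string protein of secretory vesicles. DNAJC5 was at 224 and 219 CPM in the control libraries, 201 and 204 in sh_TDP43 and 161 and 160.1 in sh_SRSF3. The sh_SRSF3 libraries were lowest, and it fell there (log2 change -0.46, SE 0.09, adjusted p = 0.000283). DNAJC13 rose in both knockdowns, by 0.34 and 0.50 on the log2 scale, and DNAJC6 fell in sh_SRSF3 by 0.41. The other members of this compartment, DNAJC5B and DNAJC5G, were too low to test.

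Further members had opposite calls in the knockdowns. HSPA12A (ENSG00000165868; chromosome 10, 118430703 to 118609252), a distant HSP70 relative, was at 18.5 and 19.5 CPM in the control libraries, 28.2 and 27.0 in sh_TDP43 and 6.49 and 5.96 in sh_SRSF3. The groups did not overlap, with sh_TDP43 highest and sh_SRSF3 lowest, and it rose in sh_TDP43 (log2 change 0.54, SE 0.12, adjusted p = 0.00308) and fell in sh_SRSF3 (log2 change -1.61, SE 0.13, adjusted p = 1.42e-07). DNAJC27, a J protein fused to a small GTPase fold, was at 6.46 and 5.84 CPM in the control libraries, 3.53 and 4.12 in sh_TDP43 and 10 and 12.3 in sh_SRSF3. It fell in sh_TDP43 (log2 change -0.69, SE 0.20, adjusted p = 0.0113) and rose in sh_SRSF3 (log2 change 0.86, SE 0.19, adjusted p = 0.001), the first call being lost without sh_TDP43 replicate 1.

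Genes that work with the members were read from chaperone lists, whose counts stand beside 32.5% higher and 34.4% lower of all genes in sh_SRSF3 and 20.7% and 24.1% in sh_TDP43. With upper-quartile scaling these shares of all genes were 26.3% and 40.1% in sh_SRSF3 and 26.3% and 19.8% in sh_TDP43. The TRiC chaperonin and prefoldin, which fold actin and tubulin, had 11 of 14 genes higher and 0 lower in sh_SRSF3 (median log2 change 0.54), led by PFDN2 (1.11), and 1 higher and 6 lower in sh_TDP43 (median -0.19), led by CCT2 (-0.77); upper-quartile scaling gave 2 higher and 3 lower in the latter. HSP90 co-chaperones had 6 of 13 higher and 0 lower in sh_SRSF3, led by CHORDC1 (1.99), but 6 higher and 3 lower with upper-quartile scaling. HSP70 exchange factors had 8 of 11 higher and 2 lower in sh_SRSF3, where BAG2 changed most (-1.81), and 4 higher and 2 lower with upper-quartile scaling. ER folding and stress genes had 11 of 21 higher and 4 lower in sh_SRSF3 (6 and 5 with upper-quartile scaling), led by the stress-response factor DDIT3, which was at 13 and 14.8 CPM in control and 99.8 and 111 in sh_SRSF3 (log2 change 2.92). In sh_TDP43 the HSP90 co-chaperones had 1 higher and 2 lower, the exchange factors 2 and 2, and the ER genes 4 and 6. Mitochondrial quality control genes had 7 of 11 higher and 1 lower in sh_SRSF3, led by the protease gene LONP1 (1.49). In sh_TDP43 they had 3 higher and 2 lower, led by CLPB (1.23). Only the sh_TDP43 shares (27.3% and 18.2%) were near those of all genes. Of the 4 HSP90 genes, 2 were higher and 0 lower in sh_SRSF3 (median log2 change 0.16). In sh_TDP43, 1 was higher and 0 lower (median -0.08). Among them HSP90AA1, the inducible cytosolic HSP90 gene, rose in sh_SRSF3 by 0.54 and had no call in sh_TDP43 (-0.18). All 4 genes of the heat shock factor list were called in both knockdowns, in mixed directions. HSF1 fell in sh_TDP43 (-0.55) and rose in sh_SRSF3 (0.76), as did HSBP1, a binding protein of HSF1 (-0.41 and 0.30). HSF4 rose in sh_TDP43 (0.72) and fell in sh_SRSF3 (-0.74), and HSF2 rose in both (0.37 and 1.15).

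The RIP of Flag-TDP43 asks which member RNAs were recovered with TDP43. With 1 RIP and 1 input library there is no replicate check and no test, and no precipitation without the tagged protein was analysed. Levels are FPKM, and ratios are log2 of (RIP + 0.1) over (input + 0.1), counted for genes with a mean of at least 1 FPKM. A second deposited matrix gives levels of the same libraries in a unit the sources used here do not name, and members are described as higher or lower only where both gave at least a 2-fold ratio. Of 43 members at that level, 6 were at least 2-fold higher in the RIP and 8 lower, against 20.4% and 18.2% of 9874 genes. In both matrices 4 were higher (HSPD1, DNAJC14, HSPA4, DNAJC25) and 5 lower (HSPB1, HSPBP1, DNAJC15, HSPE1, DNAJA3), against 12.9% and 13.7% of all genes. The median over the members was -0.06, against 0.04 over all genes; with a floor of 5 FPKM the order turned, with 0.41 over 27 members against 0.18.

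HSPA4, an HSP110 gene, was at 162 FPKM in the Flag-TDP43 RIP and 35.7 in its input, a log2 ratio of 2.18 (2.15 in the second matrix). HSPD1 was at 209 and 11.4, a ratio of 4.18 against 1.72 in the second matrix. Its neighbour HSPE1 stood on the other side, at 4.78 in the RIP and 14.1 in the input (-1.54, second matrix -1.75). The size of the HSPD1 ratio is uncertain: its FPKM in the Flag-TDP43 input was 11.4 but 60.8 in the Flag-SRSF3 input, while the second matrix had 119.6 and 110.3. DNAJC14 had ratios of 2.34 and 1.02, and DNAJC25 of 1.24 and 1.07. HSPB1 was at 4.79 in the RIP and 28.7 in the input (-2.56 and -2.67), and HSPBP1 at 3.96 and 20.1 (-2.32 and -2.30). The lowest FPKM ratios, of HSPA1B (-7.60) and HSPA1A (-4.43), were -0.00 and -0.08 in the second matrix. Opposite signs were found for 2 of the 43 members, DNAJB6 (1.39 and -0.20) and HSPH1 (-0.95 and 1.81), against 13.6% of the 9874 genes. For these members and for HSPA1A and HSPA1B no direction is given.

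In the Flag-SRSF3 RIP, 6 of 45 members were at least 2-fold higher and 8 lower, against 20.1% and 10.1% of 9932 genes. In both matrices 2 were higher (HSPB1, DNAJC30) and 6 lower (DNAJA2, DNAJC14, DNAJC19, HSPA13, HSPB11, HSPE1), against 10.2% and 6.27% of all genes. The median over the members was -0.07, against 0.21 over all genes. HSPB1 was at 111 FPKM in the RIP and 23.3 in the input, a log2 ratio of 2.25 (2.18 in the second matrix). The same RNA had a ratio of -2.56 in the Flag-TDP43 RIP, so it was above input with one protein and below input with the other. A difference between the RIPs was not tested. Opposite sides are not particular to the members. In FPKM, VIM and HSF1 were also past 2-fold below input with Flag-TDP43 and past 2-fold above it with Flag-SRSF3. The share of all genes on opposite sides was not counted. DNAJC30, a mitochondrial J protein, was at 7.31 and 2.24 (1.66 and 1.51). DNAJC14, an ER membrane J protein, had ratios of -1.33 and -1.28, below input here and above it with Flag-TDP43. DNAJC19 (-1.60), HSPA13 (-1.40), DNAJA2 (-2.09) and HSPE1 (-1.21) were also below input. HSPE1 was thus below input with both proteins. The highest FPKM ratio, 5.07 for DNAJC9, came from 16.2 in the RIP and 0.387 in the input, and the second matrix gave 21.9 and 46.9 (-1.09). HSPA1B was at -2.55 and 0.83. Opposite signs in the 2 matrices were found for 8 of the 45 members, against 17.4% of the 9932 genes.

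**Figure D5:**
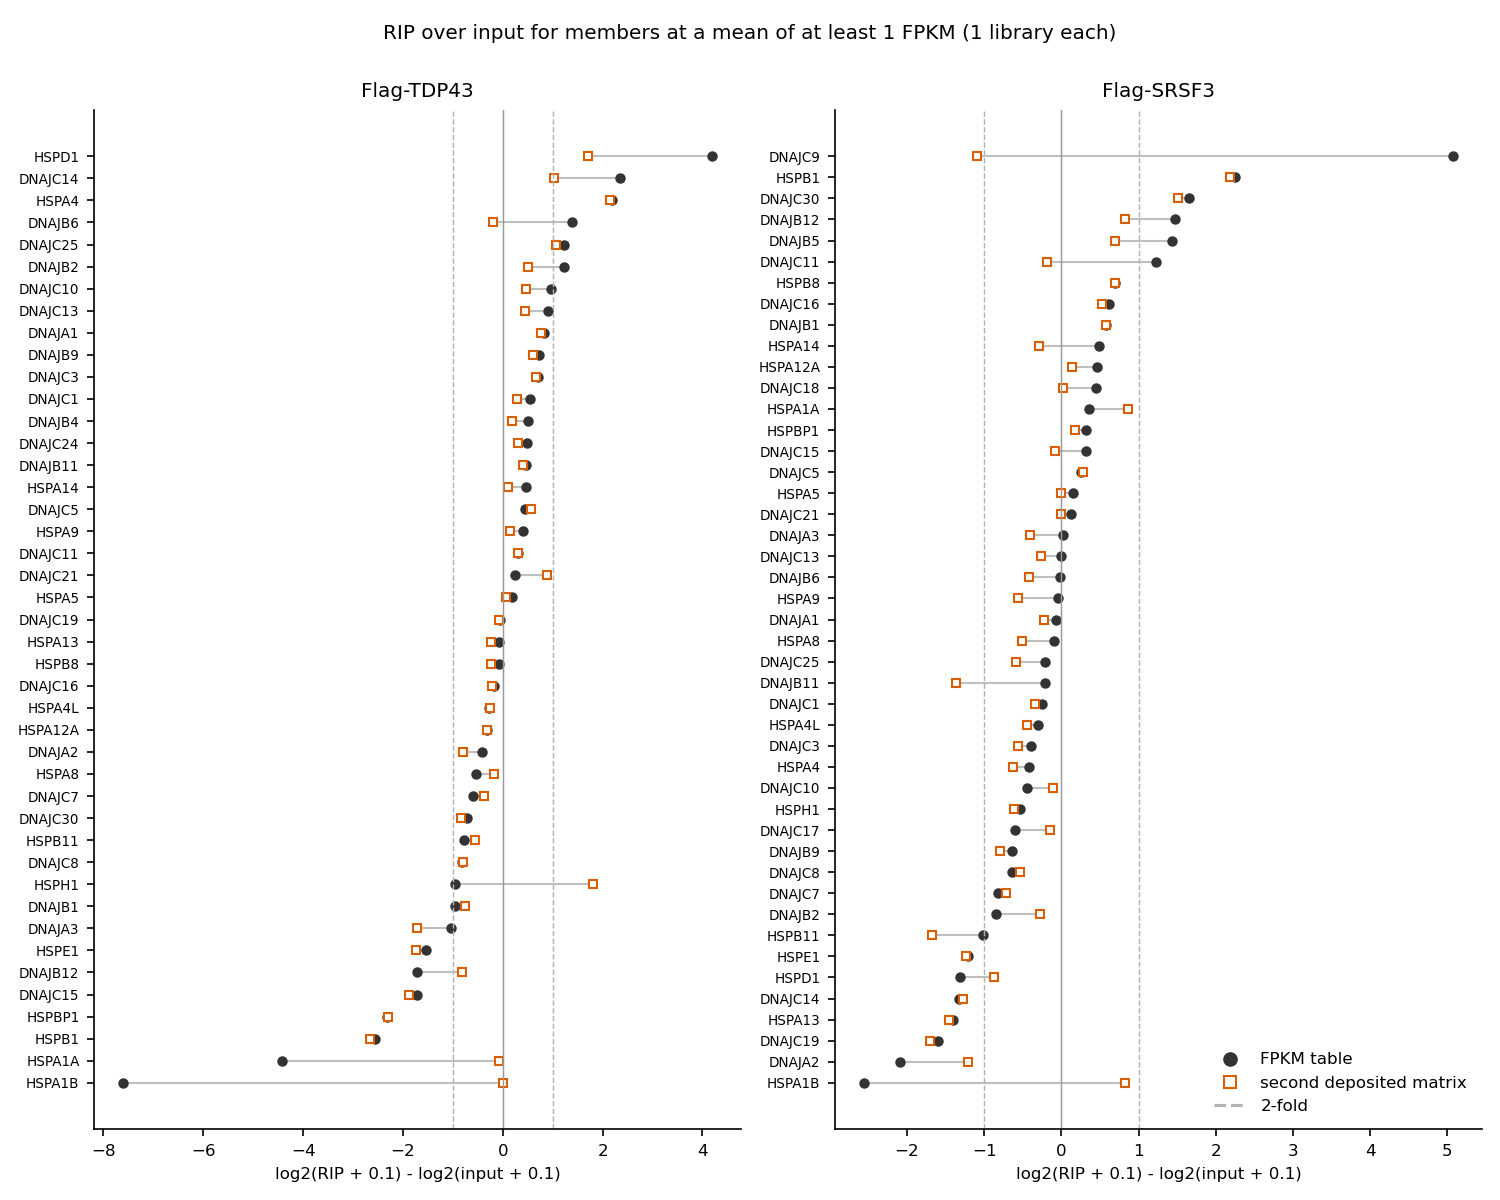
Log2 ratio of RIP over input (x axis) for the 43 members with Flag-TDP43 and 45 with Flag-SRSF3 at a mean of at least 1 FPKM, from the FPKM table (dots) and the second matrix (squares), with dashed lines at 2-fold. HSPB1 lies past 2-fold in both matrices in either panel, on opposite sides, while DNAJC9, HSPA1A and HSPA1B part between the matrices.

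Set beside the knockdowns, the members past 2-fold in both matrices had mixed changes. Of all genes tested, 44.8% were called in sh_TDP43 and 66.9% in sh_SRSF3. Of the 4 members above input with Flag-TDP43, HSPA4 rose and HSPD1 fell in sh_TDP43, and DNAJC14 (-0.03) and DNAJC25 (-0.23) had no call. Of the 5 below input, HSPBP1 and DNAJC15 fell, DNAJA3 rose, and HSPB1 and HSPE1 had no call. The calls of DNAJC15 and DNAJA3 were each lost under several alternatives, as given above. Of the 2 members above input with Flag-SRSF3, HSPB1 (-0.01) and DNAJC30 (0.09) had no call in sh_SRSF3. Of the 6 members below input with Flag-SRSF3, HSPE1, HSPA13 and DNAJC14 rose and DNAJC19 fell in sh_SRSF3, and DNAJA2 and HSPB11 had no call. Of the exon bases of DNAJC14, 22.0% overlap ORMDL2 on the other strand and 23.2% overlap RP11-762I7.5 on the same strand. Part of its reads therefore cannot be assigned.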

How the data were processed

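The deposited knockdown values are raw read counts per gene; per the file headers they come from featureCounts v1.4.6-p5 over exons of protein-coding and lincRNA genes, with no strand option and without reads that match several places. The submitters' processing notes list GRCh37 with HISAT2 2.0.5, STAR 2.5.2a, Cufflinks and StringTie 1.3.0 but assign no step to them. The authors' RIP table holds FPKM per gene, per the file headers, and a second deposited matrix holds a normalised signal per gene of unstated unit. Absolute depth of the RIP libraries is unknown; the smallest steps of the FPKM put their depths within 0.998 to 1.026 of each other.

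Counts were fitted in edgeR 4.0.16 (R 4.3.3) with TMM scaling, filterByExpr and the two-sided quasi-likelihood test over 6 libraries of 3 groups (3 residual degrees of freedom), after a check on simulated data. Calls are at an adjusted p under 0.05 over 15026 genes. Each SE was derived from the test, as the absolute log2 change over the square root of the quasi-likelihood F statistic. 2 columns of the count table match no sample label and were not used, so the planned comparisons with both hairpins were not made. The 2 libraries of each group varied beyond counting error, with 11.3 to 23.1 chi-square units per gene. RIP ratios used a pseudocount of 0.1 FPKM, without a test. Coordinates are GRCh37 except for promoters (RefSeq, GRCh38.p14).

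Named are up to 8 members called in each direction per comparison with a mean of at least 1 CPM, the 5 highest and 5 lowest RIP ratios, a set of main chaperone genes, and of other lists the 1 or 2 members with the largest called change. Members named outside this rule were chosen after their values were seen. The members and lists were chosen with earlier results of these data known. Alternatives were upper-quartile and RLE scaling, DESeq2 1.42.0, no filter, a replicate block, the compared groups alone and each library left out, and for the RIPs pseudocounts of 1 and 0.01, floors of 5 or 0 FPKM and the second matrix. The requirement of a 2-fold ratio in both matrices and the read shares without the main HSP70 gene of a compartment were added after seeing the data.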

Additional observations from a re-analysis of the deposited data

How the results depend on the processing

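Across the alternatives, counts of members called in the knockdowns stayed within 1.5 times the reported count, except that members lower in sh_TDP43 went from 15 to 9 without sh_TDP43 replicate 2 (range 9 to 15 with 1 library left out); here the fit has fewer samples. With 1 library left out, members higher in sh_TDP43 ranged from 12 to 14, higher in sh_SRSF3 from 32 to 34, lower in sh_SRSF3 stayed at 15, and against sh_TDP43 29 to 35 were higher and 11 to 13 lower. The replicate numbers are shared by the groups but pair nothing in the labels: same-numbered libraries deviated together with r of 0.20 to 0.29 across genes, and with a replicate block 15 members were higher and 16 lower in sh_TDP43, 35 and 16 in sh_SRSF3, and 36 and 13 between the knockdowns. None of the members named by the rule above reversed sign with a call in a knockdown comparison. Of the alternatives for these single members, 28 lost and 3 gained a call in sh_TDP43, 3 and 1 in sh_SRSF3, and 17 and 8 between the knockdowns. Members named outside that rule, such as DNAJC5, DNAJC6, DNAJC13, DNAJC17 and HSPB11, were not read singly under the alternatives. The RIP counts moved more, but the floor and the matrix also set how many members are counted. For Flag-SRSF3, members at least 2-fold higher went from 6 of 45 to 3 of 24 with a floor of 5 FPKM. They went to 2 of 56 with the second matrix and to 2 of 45 with both matrices required. Members lower went from 8 of 45 to 5 of 24 with that floor and to 13 of 62 with none. The counts that moved with the floor are therefore not read as a change in the share of members. For Flag-TDP43, members lower went from 8 of 43 to 5 of 43 with both matrices required. In the second matrix the sign turned for DNAJB6 with Flag-TDP43 (-0.20) and for DNAJC9 (-1.09) and HSPA1B (0.83) with Flag-SRSF3; the cause was not tested. Alternatives planned for the combined knockdown were not run. Members under about 1 CPM, such as HSPB6 and DNAJA4, have standard errors above 0.6 on the log2 scale, so that only large changes would be detectable at this depth.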

Other observations

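The RIP tables list 84 further genes with these prefixes, mostly pseudogenes, of which 58 were listed at 0 in all 4 libraries and 4 reached 1 FPKM in any. HSPB1P1, a pseudogene of HSPB1, was listed at 0.0706 FPKM in the Flag-TDP43 RIP against 1.10 in its input, and at 2.11 in the Flag-SRSF3 RIP against 0.277. HSPD1P1 was listed at 8.90 against 1.89 with Flag-TDP43 and at 1.71 against 4.85 with Flag-SRSF3. Both stood on the same side of input as their parent gene in each RIP; no source used here tells how reads matching parent and pseudogene were assigned. HSPE1P2 was below input in both RIPs (0.473 against 1.26 and 0.354 against 1.16), as was HSPE1. DNAJC19P9, the last of the 4, was above input with Flag-TDP43 (2.12 against 1.57), where DNAJC19 was not (4.74 against 4.93). With Flag-SRSF3 both were below input (0.719 against 1.92 and 1.66 against 5.24). The mean of RIP and input was under 1 FPKM for HSPE1P2 in both RIPs and for HSPB1P1 with Flag-TDP43.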
